A study of Homo sapiens with 2 samples.

Results

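The collagen genes were followed in 2 RNA-seq libraries of HK-2 cells, a proximal tubule line established from normal human kidney, infected for 24 h with an adenovirus. Both labels name HK-2, although they expand the name with different numbers, and both libraries were taken as that line. The members were chosen by name alone, as every protein-coding gene whose symbol reads COL, a number, A and a number, and they came to 44 of the 58302 genes in the files. The control library, labelled Ad-GFP, came from cells given an adenovirus for green fluorescent protein, and the other, labelled Ad-Bmal1, from cells given an adenovirus for the coding sequence of the clock transcription factor Bmal1. The medium for both was RPMI-1640 with 10% serum, and infection with an adenovirus was common to both groups, so that uninfected cells enter no comparison here. With a single library on each side, differences are between these libraries and lack any replicate, and they cannot be told apart from variation between cultures.

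Collagens are secreted proteins in which 3 chains wind into a triple helix, and the helix needs a glycine in each successive triplet of residues. Fibrillar collagens bear tension in connective tissue, type IV collagen forms the sheet of basement membranes, and smaller classes tie fibrils, membranes and cells together. In the kidney, type IV collagen of the tubular basement membrane underlies the epithelium, and an excess of fibrillar collagen between tubules is a mark of fibrosis.

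The glycine repeat can be read in the transcripts. In all 44 members the coding sequence (longest coding transcript, GENCODE v29) held an uninterrupted in-frame run of at least 23 triplets of codons that each begin with a glycine codon, and the longest run was 343 triplets. A run of 20 or more was found in 23 of 19727 other protein-coding genes, whose median longest run was 2. The first 90 bases of the longest run are shown for members that the results turn on, with the glycine codon that opens each triplet in capitals. The codon numbers are 179 to 208 for COL1A1, 43 to 72 for COL4A1, 782 to 811 for COL4A2, 351 to 380 for COL8A1, 316 to 345 for COL8A2 and 2803 to 2832 for COL12A1.
COL1A1: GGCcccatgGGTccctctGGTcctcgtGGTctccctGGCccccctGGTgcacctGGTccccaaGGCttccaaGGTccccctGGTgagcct
COL4A1: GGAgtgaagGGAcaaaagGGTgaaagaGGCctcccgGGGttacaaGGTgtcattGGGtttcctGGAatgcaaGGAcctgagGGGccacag
COL4A2: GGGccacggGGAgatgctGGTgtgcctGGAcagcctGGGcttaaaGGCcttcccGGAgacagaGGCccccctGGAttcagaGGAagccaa
COL8A1: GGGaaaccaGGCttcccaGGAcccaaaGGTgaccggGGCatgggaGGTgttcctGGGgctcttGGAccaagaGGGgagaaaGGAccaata
COL8A2: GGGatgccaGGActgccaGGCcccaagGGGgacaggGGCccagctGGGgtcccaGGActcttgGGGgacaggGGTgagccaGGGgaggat
COL12A1: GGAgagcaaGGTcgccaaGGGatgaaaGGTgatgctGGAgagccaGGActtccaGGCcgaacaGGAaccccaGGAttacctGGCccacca
The run was 338 triplets long in COL1A1, a fibrillar chain, and 40 and 66 in COL4A1 and COL4A2, whose helices are broken by short interruptions. In COL12A1, a fibril-associated chain, it was 32 triplets, and runs of 10 or more triplets made up 7.64% of its codons against 72.7% in COL1A1.

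The libraries held 20032652 and 20051735 counts, in the order Ad-GFP and Ad-Bmal1, which is also the order of every pair of counts below. Ratios are counts in the library labelled Ad-Bmal1 over those in the library labelled Ad-GFP after TMM scaling for library size, and the ranges in brackets are exact 95% binomial (Clopper-Pearson) intervals that cover counting error only. Transcripts of BMAL1 itself went against the label, with 204 and 133 counts and a ratio of 0.667 (0.532 to 0.834). Whether transcripts from the vector were counted under that gene was not tested. Of 11 clock genes, several of them known BMAL1 targets, 4 were higher and 1 lower by the 1.5-fold rule described below. Over all measured genes 4.41% were higher and 4.90% lower by it. The higher clock genes were NR1D1 at 2.49 (2.03 to 3.08), DBP at 2.33 (1.82 to 2.99), PER1 at 1.85 (1.65 to 2.07) and PER2 at 1.68 (1.24 to 2.28). The lower one was NPAS2, with 73 and 46 counts and a ratio of 0.645 (0.436 to 0.945). Directions below refer to the name on a library. Of 16 proximal tubule markers 4 reached 1 CPM, the count scaled to library size, in at least 1 library, led by PAX8 and CDH6, and the endocytic receptor LRP2 was at 0 in both. Of 8 genes in the epithelial list 7 reached 1 CPM, 1 with a ratio above 1 and 6 below. The keratin KRT8 had 20712 and 19292 counts, VIM 21084 and 15528 and CDH2 2393 and 3369. CDH1, the gene under 1 CPM, had 1 and 4 counts. Fibroblast and smooth muscle markers reached 1 CPM for 7 of 14, with PDGFRA at 1 and 0 counts and POSTN and DPT at 0. The summed level of this list was 92.8 and 95.1 CPM, most of it TAGLN at 63.6 and 58.2 CPM. Within it THY1 had 8 and 33 counts, a ratio of 4.22 (1.91 to 10.6), CNN1 a ratio of 1.58 (1.33 to 1.89) and DCN 0.716 (0.542 to 0.943). The summed level of endothelial markers was 6.17 and 3.68 CPM, of podocyte markers 129 and 132, of leukocyte markers 21.7 and 20.7, and of hepatocyte markers 298 and 269. The endothelial genes TIE1, with 28 and 7 counts, and ESAM, with 65 and 21, were lower by that rule. ERG, the only other measured gene of that list, went the other way with 25 and 39 counts. Its interval included 1 (0.942 to 2.75). The hepatocyte sum was nearly all SERPINA1, at 296 and 253 CPM. ALB had 9 and 165 counts, HP 2 and 40, AMBP 13 and 53, APOA1 0 and 15 and TTR 0 and 9. In the rest of that list TF had 1 and 14, APOB 0 and 4, FGB 21 in each and CYP3A4 5 and 1. The part of these marker differences in the collagen values was not tested.

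Of the 44 collagen genes 20 were measured, meaning that they reached 1 CPM (20.3 and 19.8 counts) in at least 1 library. Per length of transcript, chains of types IV and VI led in both libraries. Several chains of stromal collagens were at trace level, although COL1A1 and COL5A1 were not. COL1A2, the partner of COL1A1 in type I collagen, had 4 and 1 counts, COL3A1, the main chain of loose connective tissue, 0 and 1, and COL6A3, the large chain of type VI collagen, 16 and 10. The other members under 1 CPM were COL17A1 with 18 and 14 counts, COL15A1 with 19 in each, 12 members with at most 5 counts in either library, and 7 with none. Those 7 were COL4A6, COL5A3, COL6A5, COL6A6, COL10A1, COL23A1 and COL25A1, where a count of 0 allows a level of up to 0.148 and 0.151 CPM.

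**Figure D1:**
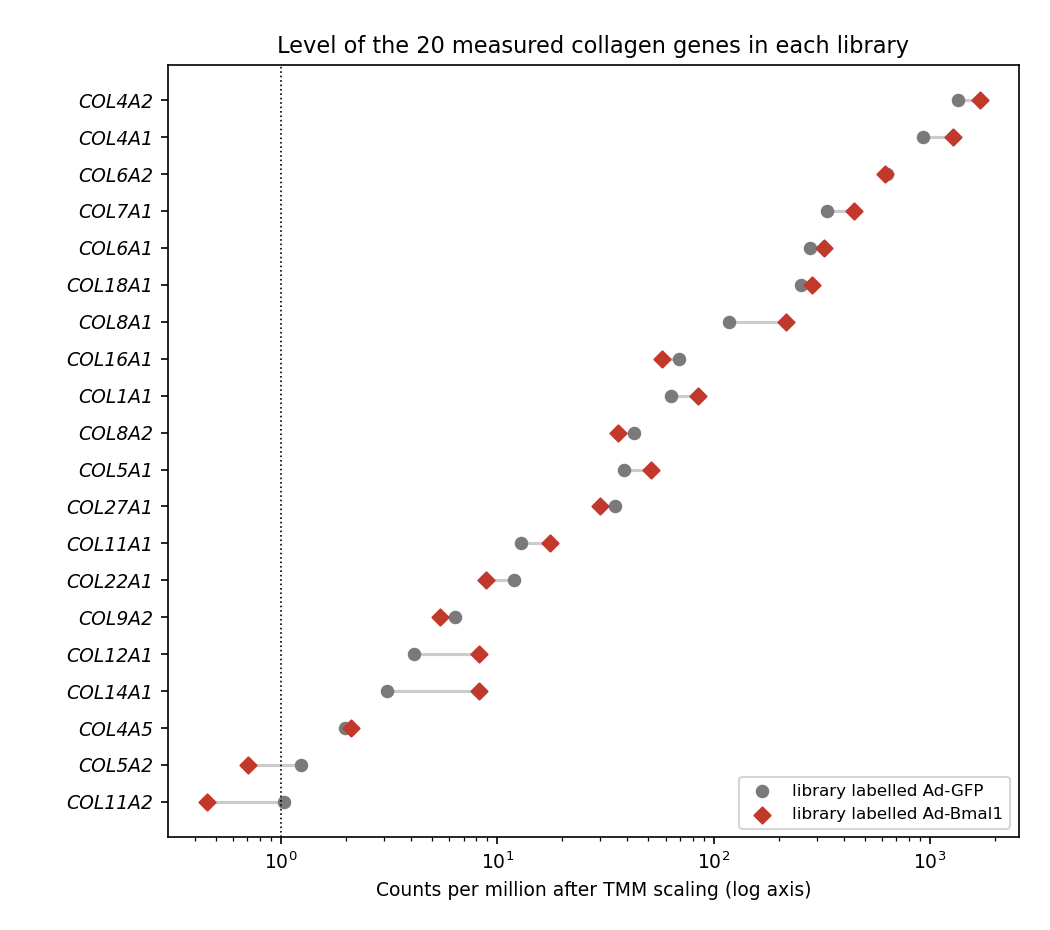
Level of each of the 20 measured collagen genes in CPM after TMM scaling (log axis) for Ad-GFP (grey circles) and Ad-Bmal1 (red diamonds), with the 1 CPM limit dotted. The levels run from 0.454 CPM for COL11A2 to 1701 CPM for COL4A2, and the widest gaps are those of COL14A1, COL12A1, COL8A1, COL5A2 and COL11A2.

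Collagen transcripts took a larger share of the library labelled Ad-Bmal1. The 44 genes summed to 85032 and 102837 counts, or 0.424% (0.422 to 0.427) and 0.513% (0.510 to 0.516) of all counts, a ratio of 1.24 (1.23 to 1.25). Type IV chains accounted for 12966 of the 17805 additional counts, and without COL4A1 and COL4A2 the ratio of the sum was 1.15 (1.14 to 1.17). By class the ratio of summed counts was highest for the short-chain collagens of type VIII at 1.57 (1.502 to 1.64) and was 1.33 (1.29 to 1.38) for type VII and 1.31 (1.29 to 1.33) for type IV. It was 1.22 (1.16 to 1.28) for fibrillar chains, 1.03 (1.01 to 1.05) for the beaded filament class and 0.934 (0.875 to 0.997) for the fibril-associated class.

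Single members went both ways. Of the 20 measured genes 12 had a ratio above 1 and 8 below, with a median of 0.19 on the log2 scale beside 0.00 over all 13231 measured genes. The interval lay above 1 for 11 members, against 23.8% of all measured genes, and below 1 for 6, against 21.6%. By a size rule of at least 1.5-fold with an interval that excludes 1, COL8A1, COL12A1 and COL14A1 were higher (3 of 20, or 15.0%, against 4.41% of all measured genes). COL11A2 alone was lower by it (1 of 20, or 5.0%, against 4.90%). It reached 1 CPM only in the library where it was higher, at 1.04 CPM under Ad-GFP and 0.454 under Ad-Bmal1. At 2-fold 1 member was higher, COL14A1, and 1 lower, COL11A2, against 1.13% and 1.74% of all measured genes.

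**Figure D2:**
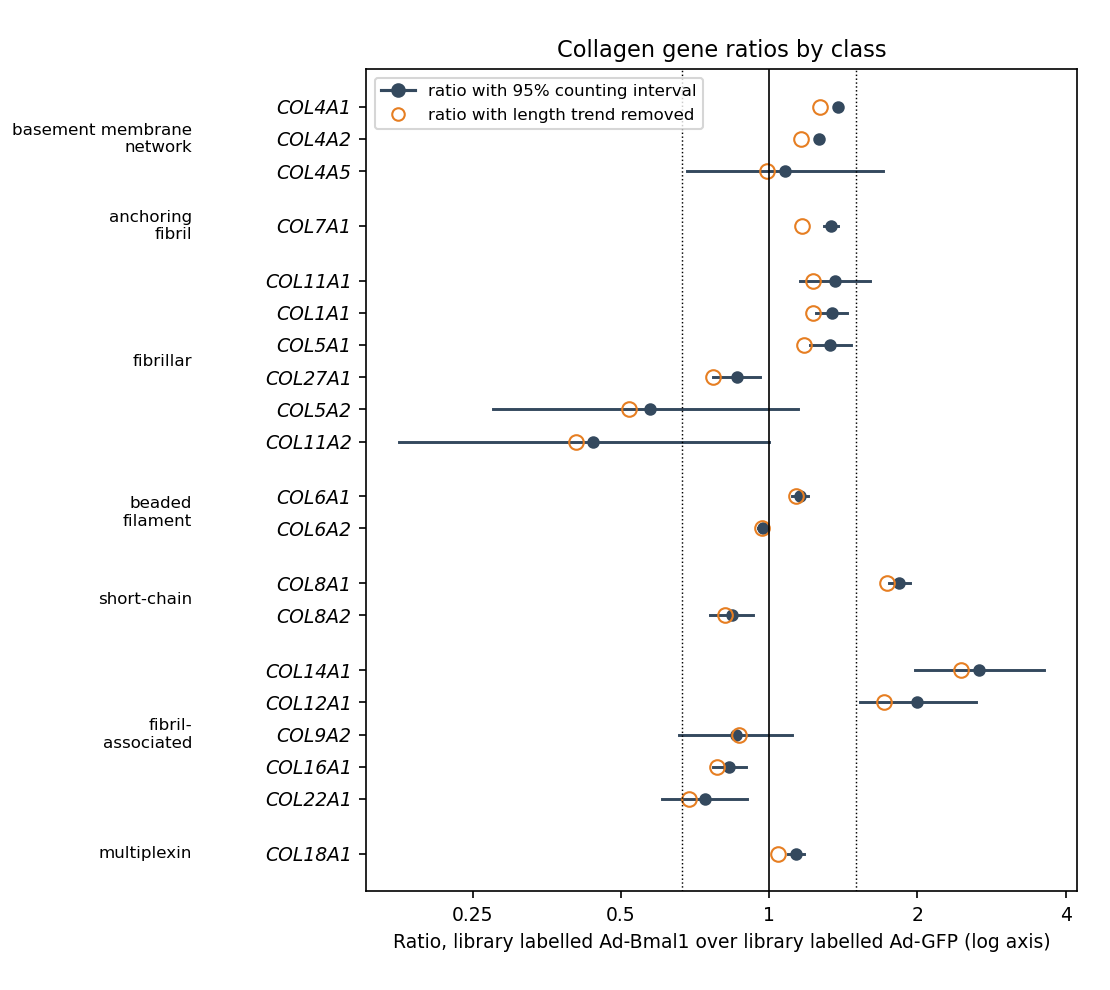
Ratio of each measured collagen gene (log axis, Ad-Bmal1 over Ad-GFP) with its 95% counting interval, by class, and the same ratio with the transcript length trend removed (open circles); dotted lines mark 1.5-fold. COL14A1, COL12A1 and COL8A1 lie beyond the upper line, COL11A2 and COL5A2 beyond the lower one, and type IV, VII, I and V leading chains lie between 1.26 and 1.38.

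The basement membrane chains COL4A1 and COL4A2, which wind together into the common form of type IV collagen, had more counts than any other member. COL4A1 (ENSG00000187498, chromosome 13, 110148963 to 110307233, GRCh38, minus strand, 52 exons in its longest coding transcript) had 18820 and 25410 counts, a ratio of 1.38 (1.36 to 1.41). COL4A2 (ENSG00000134871, chromosome 13, 110305812 to 110513209, plus strand) had 27333 and 33703 counts, a ratio of 1.26 (1.24 to 1.28). Both chains were thus higher in the library labelled Ad-Bmal1, by less than 1.5-fold. Per kilobase of transcript COL4A2 was at 208 and 262 CPM and ranked 359 and 263 among measured genes, and COL4A1 was at 140 and 194 CPM. The level of COL4A2 over COL4A1 per length went from 1.48 (1.45 to 1.51) to 1.35 (1.33 to 1.37), a ratio of ratios of 0.913 (0.891 to 0.936) that no scaling between libraries can move. The value per length depends on the transcript chosen, and with all annotated exons merged it was 1.11 and 1.01.

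The pair lies head to head, and the RefSeq start sites used here (GRCh38.p14), at 110307157 for COL4A1 and 110307284 for COL4A2, leave a gap of 126 bases. It is shown because both genes of the pair with the most counts start beside it, read on the plus strand at chr13:110307158-110307283, with a CCAAT box and a GC box (GGGCGG) in capitals.
COL4A1-COL4A2 gap: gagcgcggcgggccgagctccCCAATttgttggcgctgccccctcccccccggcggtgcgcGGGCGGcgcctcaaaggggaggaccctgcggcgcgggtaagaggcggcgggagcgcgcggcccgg
The gap was 80.2% G and C and held neither the E-box CACGTG, the element that BMAL1 and CLOCK bind, nor the TATA box TATAAA. Promoter windows in RefSeq (250 bases before to 50 after a start site) were matched for 32 of the 44 collagen genes, some with several start sites, which gave 44 windows. Measured genes without a match were COL1A1, COL5A2, COL6A1, COL8A1, COL14A1 and COL22A1. On either strand CACGTG was in 0 of these 44 windows and in 7.26% of all 35116 windows. GGGCGG was in 54.5% of collagen windows and 45.0% of all, CCAAT in 31.8% and 34.6%, and TATAAA in 18.2% and 11.5%. A match describes letters and is not a binding site, and the absence of one says only that these letters are not in these windows.

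The remaining type IV genes, which encode the chains of glomerular and some other specialised basement membranes, were at trace level. COL4A5 (chromosome X) had 40 and 42 counts, a ratio of 1.07 (0.680 to 1.70). COL4A3 and COL4A4, a second head-to-head pair on chromosome 2, had 0 and 2 counts each, and COL4A6 none. Per length COL4A2 was 682 (501 to 955) and 801 (593 to 1112) times COL4A5. With merged exons it was 420.2 and 493.5 times.

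COL7A1, the chain of anchoring fibrils that fasten basement membrane to the tissue beneath (ENSG00000114270, chromosome 3, 48564073 to 48595267, minus strand, 118 exons), had 6791 and 8857 counts, a ratio of 1.33 (1.29 to 1.38). COL18A1, a heparan sulfate-bearing basement membrane collagen and the source of endostatin (chromosome 21, 45405137 to 45513720, plus strand), had 5127 and 5677 counts, a ratio of 1.13 (1.09 to 1.18). Both ratios lay above 1, COL18A1 by the smaller margin. Exons of COL18A1 share 1401 bases with SLC19A1 on the opposite strand, which had 1026 and 1354 counts, and without a stated strand setting reads from that stretch cannot be told apart.

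Type VI collagen forms beaded filaments near the cell surface, usually from COL6A1, COL6A2 and a longer chain. COL6A1 (chromosome 21, 45981737 to 46005050) had 5681 and 6411 counts, a ratio of 1.15 (1.11 to 1.20). COL6A2, its neighbour (46098097 to 46132849), had 12899 and 12251 counts, a ratio of 0.972 (0.948 to 0.996). The pair therefore differed in direction, and COL6A2 over COL6A1 per length went from 2.78 (2.69 to 2.87) to 2.34 (2.27 to 2.41), a ratio of ratios of 0.842 (0.806 to 0.879). With merged exons those levels were 2.25 and 1.90. COL6A2 lay on the other side of 1, at 1.02, with a trend on GC content removed. COL6A3 was at trace level, and per length COL6A2 exceeded it 2504-fold (1541 to 4382) and 3805-fold (2068 to 7936). The alternative long chains COL6A5 and COL6A6 had no counts.

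Among fibrillar chains COL1A1, COL5A1 and COL11A1 had near-equal ratios, while their partner chains were scarce. COL1A1 (ENSG00000108821, chromosome 17, 50183289 to 50201632), the main chain of type I collagen, had 1285 and 1681 counts, with a ratio of 1.34 (1.24 to 1.44). COL5A1, which sets fibril diameter as part of type V collagen, had 780 and 1015 counts, a ratio of 1.33 (1.21 to 1.46). COL11A1, a cartilage fibril chain, had 262 and 348 counts, a ratio of 1.36 (1.15 to 1.602). All 3 leading chains had more counts under the Ad-Bmal1 label, by amounts whose intervals overlap.

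Their partners had few counts. COL5A2 had 25 and 14 counts, a ratio of 0.573 (0.275 to 1.15). It reached 1 CPM only in the library where it was higher, at 1.23 CPM under Ad-GFP and 0.707 under Ad-Bmal1. COL11A2 had 21 and 9 counts, a ratio of 0.439 (0.177 to 0.999), so the interval of COL5A2 includes 1 and that of COL11A2 ends just below it. With the GC trend removed the interval of COL11A2 also included 1 (0.182 to 1.03). COL11A1 over COL11A2 per length was 10.9 (7.01 to 17.97) and 33.9 (17.7 to 74.8), and COL5A1 over COL5A2 26.1 (17.5 to 40.6) and 60.6 (36.0 to 111). COL1A1 exceeded COL1A2 258-fold per length (101 to 950) in the library labelled Ad-GFP. With 1 count of COL1A2 in the other library the ratio there was 451 with an interval of 242 to 53438. COL27A1, a fibrillar chain whose longest uninterrupted run was 217 triplets, had 708 and 594 counts, a ratio of 0.858 (0.768 to 0.959). COL24A1, with a longest run of 216 triplets, had 1 and 0 counts. COL2A1, the cartilage chain, had 0 and 2. In these bulk libraries fewer cells of a type and less RNA per cell cannot be told apart, and the fibroblast and smooth muscle markers given above differed in both directions.

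**Figure D3:**
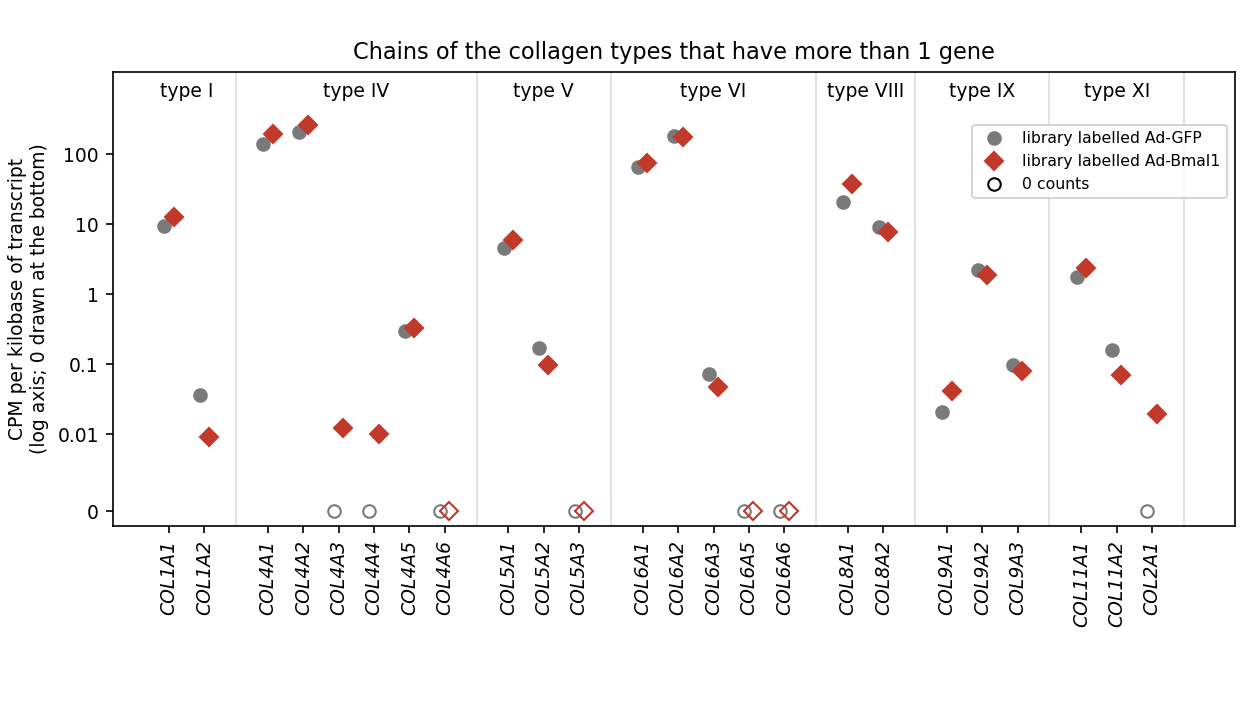
CPM per kilobase of transcript (log axis, 0 drawn at the bottom) of every chain of the 7 collagen types with more than 1 gene, for Ad-GFP (grey circles) and Ad-Bmal1 (red diamonds), with open symbols for 0 counts. Types IV, VI and VIII have a pair of abundant chains, whereas types I, V, IX and XI have 1 chain more than 10 times its next in the library labelled Ad-GFP.

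Type VIII collagen builds hexagonal lattices under endothelium and in the subendothelial and corneal matrix, and its 2 genes gave the clearest split between paralogs. COL8A1 (ENSG00000144810, chromosome 3, 99638475 to 99799226, plus strand) had 2390 and 4291 counts, a ratio of 1.84 (1.75 to 1.93). COL8A2 (ENSG00000171812, chromosome 1, 36095236 to 36125220, minus strand) had 874 and 717 counts, a ratio of 0.839 (0.759 to 0.928). COL8A1 was thus the higher and COL8A2 the lower of the pair in the library labelled Ad-Bmal1. COL8A1 over COL8A2 per length went from 2.24 (2.07 to 2.42) to 4.90 (4.53 to 5.31), a ratio of ratios of 2.19 (1.96 to 2.45). With merged exons those levels were 1.36 and 2.97. The transcripts differ in base composition, with 46.8% G and C for COL8A1 and 61.7% for COL8A2. Their longest uninterrupted glycine runs were near equal, at 61 and 60 triplets (sequences above). With the GC trend over all genes removed the ratios were 1.82 and 0.857. The third short-chain gene, COL10A1 of growth cartilage, had no counts.

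The fibril-associated collagens, which sit on the surface of fibrils and have interrupted helices, held the highest ratio of all measured members, that of COL14A1, and also ratios below 1. COL14A1 (chromosome 8, 120059780 to 120372036) had 63 and 164 counts, a ratio of 2.66 (1.98 to 3.62). COL12A1 (ENSG00000111799, chromosome 6, 75084326 to 75206051, minus strand, 66 exons) had 84 and 164, a ratio of 2.00 (1.53 to 2.63). Both chains have a short collagenous part and long fibronectin-like repeats, and both had higher levels under the Ad-Bmal1 label, of 8.28 CPM.

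Their class mates were not. COL16A1 had 1406 and 1141 counts, a ratio of 0.830 (0.767 to 0.898), COL22A1, known from tissue junctions, 243 and 176, a ratio of 0.741 (0.607 to 0.903), and COL9A2, a cartilage chain, 129 and 108, a ratio of 0.857 (0.657 to 1.11). COL16A1 and COL22A1 had intervals below 1, and that of COL9A2 included 1. COL9A1 had 2 and 4 counts and COL9A3 5 and 4, so COL9A2 stood without its partners at 22.5 (9.40 to 70.5) and 23.6 (8.94 to 88.0) times COL9A3 per length. COL19A1 had 0 and 1 counts, COL20A1 0 and 2 and COL21A1 1 and 0. Of the transmembrane collagens COL17A1, the hemidesmosome chain, had 18 and 14 and COL13A1 1 in each. COL28A1 had 1 in each and COL26A1 3 and 0.

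Per length, type IV chains made up more of the collagen pool in the library labelled Ad-Bmal1, and type VI chains less. Type IV chains made up 47.0% and 51.3% of summed CPM per kilobase over the 44 genes. The beaded filament class went from 33.8% to 28.7%, of which COL6A2 went from 24.8% to 20.1%, and the short-chain class from 4.04% to 5.14%. Fibrillar chains made up 2.78% and 2.82%.

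Collagen transcripts are long, and longer transcripts in general had higher ratios in this pair of libraries. Over all measured genes the median log2 ratio was -0.08 in the shortest of 5 equal groups by transcript length and 0.15 in the longest group (5571 bases and more), where 66.6% of 2644 genes had a ratio above 1. Of the 20 measured collagen genes 16 were in that group, and their median length was 6488.5 bases against 3227 over all measured genes. Within the longest group 10.0% of all genes were higher by the 1.5-fold rule and 2.76% lower, beside 3 of 16 and 1 of 16 collagen genes. With the trend removed the median of the collagen genes was 0.12 on the log2 scale and 11 of 20 lay above 1. COL4A1 was then at 1.27, COL4A2 at 1.16, COL7A1 at 1.17, COL1A1 at 1.22, COL5A1 at 1.18 and COL18A1 at 1.04, and COL8A1, COL12A1 and COL14A1 at 1.73, 1.71 and 2.46.

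**Figure D4:**
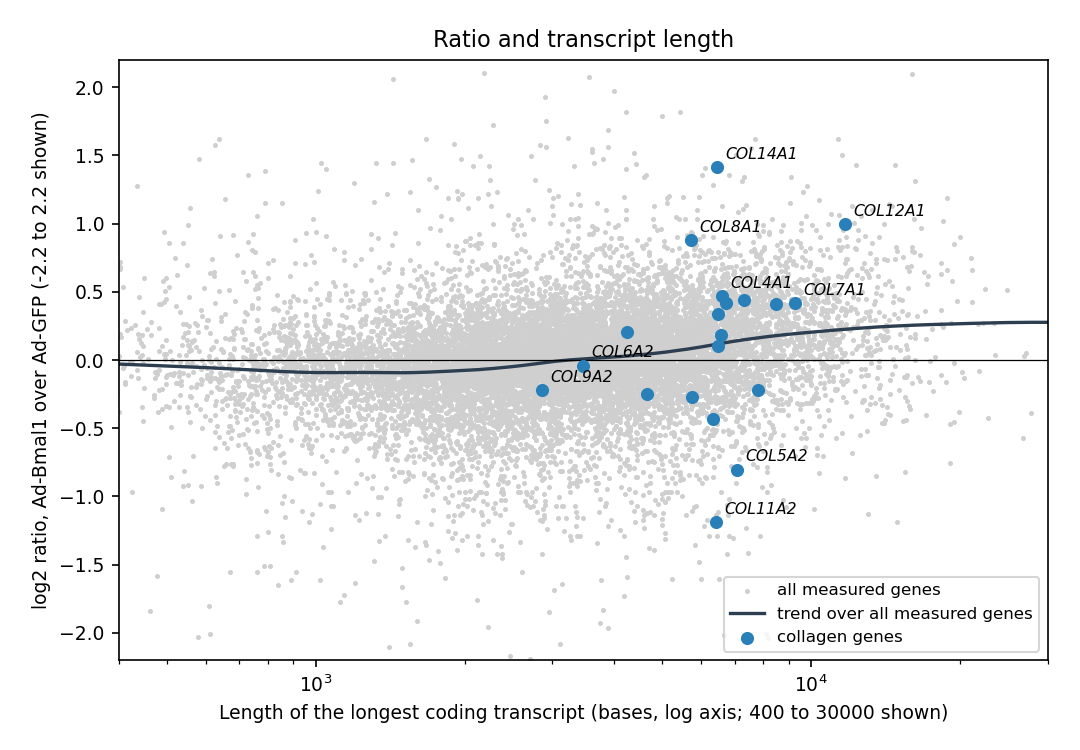
log2 ratio of each measured gene (grey) and of the 20 measured collagen genes (blue) against the length of the longest coding transcript (log axis), with the trend over all measured genes as a line. The trend lies between -0.02 and 0.23 at the collagen genes, and COL14A1, COL12A1 and COL8A1 lie farthest above it.

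Base composition went with smaller differences over all genes, with a median log2 ratio of 0.01 in the lowest of 5 groups by GC content and -0.03 in the highest. Among the 20 measured collagen genes the log2 ratio and GC content had a Pearson r of -0.45 and a Spearman rho of -0.48, as a description across genes that share 2 libraries and are not replicates. Of the 5 measured members under 50% GC 4 had a ratio above 1, and of the 15 others 8 did.

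Genes that modify and secrete collagen chains differed by less than 1.5-fold, and larger differences were among matrix partners. Of 107 genes in 8 lists (each gene once) 83 were measured, with a median log2 ratio of 0.08. By the 1.5-fold rule 12 were higher and 5 lower, against 4.41% and 4.90% of all measured genes. With the length trend removed 7 were higher and 8 lower. All 20 genes of chain modification and folding were measured and none passed the rule in either direction, with a median of 0.09. P4HB, a subunit of prolyl hydroxylase, had 47516 and 44947 counts, a ratio of 0.968 (0.955 to 0.980). SERPINH1, the collagen chaperone HSP47, had 11226 and 12277 counts, a ratio of 1.12 (1.09 to 1.15). None of the 12 genes of procollagen secretion passed, with a median of -0.09 and ratios of 0.9502 (0.902 to 1.001) for the coat protein SEC13 and 1.03 (0.974 to 1.09) for the GTPase SAR1A.

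Outside the cell, 2 of 6 measured genes of propeptide removal were higher and none lower, against 4.41% and 4.90% of all measured genes. They were TLL2, a protease of the BMP1 family, at 1.52 (1.33 to 1.75) and PCOLCE2, a procollagen C-proteinase enhancer, at 1.54 (1.30 to 1.84). The list median was 0.26. All 7 cross-linking genes were measured and none passed, with ratios of 1.14 (1.13 to 1.16) for the lysyl oxidase LOXL2 and 1.05 (1.02 to 1.09) for PXDN, which cross-links type IV collagen. Their median was 0.08, and -0.06 with the length trend removed.

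Genes that shape fibrils or bind and degrade collagen had larger and opposed differences. Of 9 measured fibril regulators 3 were higher and 2 lower, against 4.41% and 4.90% of all measured genes. THBS1, a matricellular protein gene, had 5558 and 10835 counts, a ratio of 1.99 (1.93 to 2.06), FN1, fibronectin, 1.65 (1.64 to 1.65), THBS2 0.473 (0.397 to 0.562) and BGN, the small proteoglycan biglycan, 0.553 (0.442 to 0.690). FBN1, fibrillin, was at 1.53 (1.43 to 1.65). With the length trend removed FN1 was at 1.445 and FBN1 at 1.31, short of 1.5-fold, and THBS1 at 1.78. The list median was 0.23.

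Of 8 measured genes of collagen breakdown 1 was higher and 1 lower, against 4.41% and 4.90% of all measured genes. MMP1, interstitial collagenase, was lower with 2251 and 881 counts, a ratio of 0.400 (0.370 to 0.433). MMP16 was higher at 9 and 25 counts, a ratio of 2.84 (1.28 to 6.92), and reached 1 CPM under the Ad-Bmal1 label alone. The list median was -0.16. Of 7 measured collagen receptors 1 was higher and 2 lower, beside the same shares of all measured genes. ADGRG1 was higher at 1.603 (1.51 to 1.70), and CD44 was lower at 0.603 (0.587 to 0.619). The integrin chain ITGA2, with 25 and 10 counts, was lower at 0.409 (0.175 to 0.882) and reached 1 CPM under the Ad-GFP label alone. The median of the receptors was -0.09.

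Partners of type IV collagen in the basement membrane had the highest list median, 0.42, or 0.32 with the length trend removed. Of 14 measured genes 12 had a ratio above 1 and 5 were higher by the 1.5-fold rule, none lower, against 4.41% higher and 4.90% lower over all measured genes and 10.0% higher in the group of longest transcripts. HSPG2, the heparan sulfate proteoglycan perlecan, had 3616 and 7820 counts, a ratio of 2.21 (2.13 to 2.30). NID2, a nidogen that links laminin to collagen IV, had 158 and 337 counts, a ratio of 2.18 (1.80 to 2.65). The laminin chain LAMA5 was at 1.75 (1.66 to 1.85), and LAMA1 at 1.505 (1.403 to 1.61), just past the rule. FRAS1, which anchors epithelium to basement membrane, was at 1.61 (1.34 to 1.94). With the length trend removed LAMA1 was at 1.31 and FRAS1 at 1.35, short of 1.5-fold, and so was TLL2 of propeptide removal at 1.39.

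**Figure D5:**
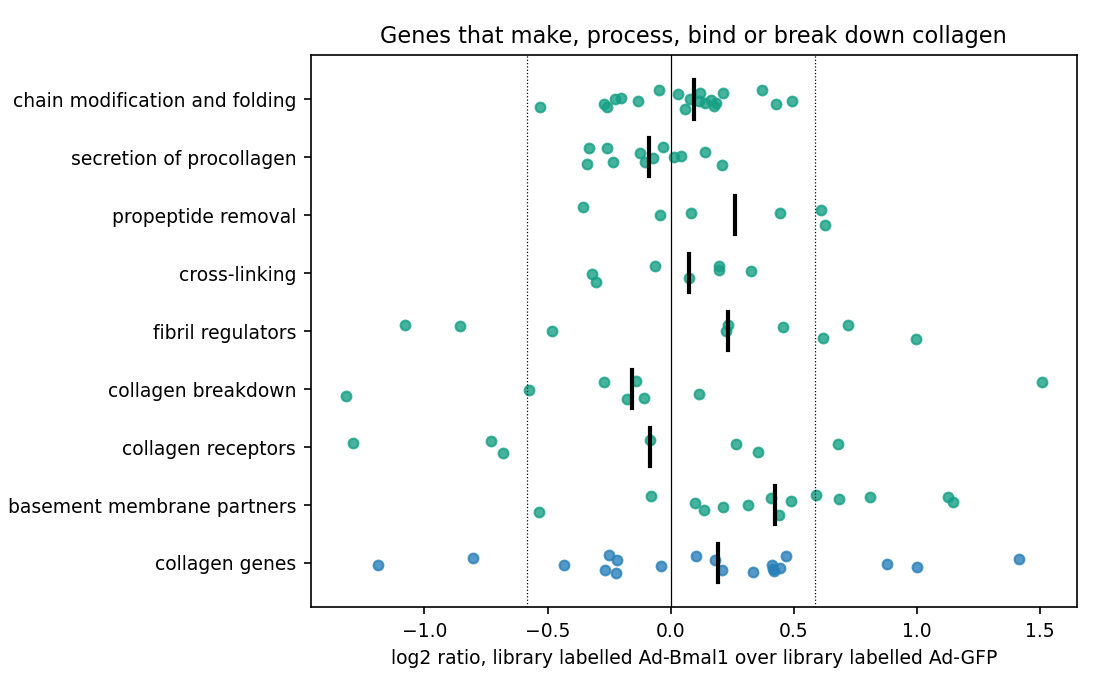
log2 ratio (Ad-Bmal1 over Ad-GFP) of each measured gene in the 8 lists and of the 20 measured collagen genes, with a bar at each median and dotted lines at 1.5-fold; vertical scatter within a row has no meaning. Basement membrane partners have the highest median, 0.42, and genes of collagen breakdown the lowest, -0.16.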

How the data were processed

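RNA of HK-2 cells was measured in 2 libraries, 1 per group, made from polyadenylated RNA and read as pairs of 150 bp, per the labels' protocols. What the authors deposited are whole-number counts for each Ensembl gene, with no normalization. HISAT2 and GRCh38 are named for alignment in GEO's record, per the submitters' processing notes. Which program counted the reads, with what annotation and strand setting, is not given in the sources used here.

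Symbols came from a table of gene names, which matched 57532 of 58302 identifiers, and lengths, exons and coding sequences from GENCODE v29, which held 99.5% of them. TMM factors (1.01 and 0.988) came from edgeR 4.0.16 in R 4.3.3, and other steps used Python 3.11.15, scipy 1.17.1 and statsmodels 0.14.6. A group of 1 leaves nothing to estimate a spread from, so no quasi-likelihood model of edgeR could be fitted, and neither p-values nor SDs appear. A gene was measured at 1 CPM or more in at least 1 library. COL5A2, COL11A2, MMP16, ITGA2, THY1, TIE1, ALB, HP and AMBP reached that level only in the library where they were higher. Where a count was 0, 3 counts stood in as the floor. Reads carry no molecular identifiers, so intervals and floors cover counting error only. The length and GC trends are lowess fits (fraction 0.3) over all measured genes, subtracted from each log2 ratio. Ratios of ratios have exact conditional odds ratio intervals.

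The rule for named genes took every measured collagen gene and, in each of the 8 lists of genes that make, process, bind or break down collagen, up to 4 members that passed the 1.5-fold rule with the interval bound farthest from 1, or else those 2 with the highest counts. Genes of the marker and clock lists, FRAS1 and FBN1 were named after their values were seen. The members, lists and rules were chosen with earlier results of these data known. The steps were tested on simulated counts. Alternatives were other scalings (total counts, upper quartile, DESeq2 1.42.0 size factors), thinning, other filters and fold thresholds, and removal of the trends.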

Additional observations from a re-analysis of the deposited data

How the results depend on the processing

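No paired analysis was possible because each group has 1 library. All 20 single ratios stayed within their counting intervals under DESeq2 size factors, upper-quartile scaling, library sizes that omit mitochondrial genes and the 20 with most counts, and thinning of the deeper library, as did 18 under total counts, 12 with the length trend removed and 16 with the GC trend removed. No ratio whose interval excluded 1 changed side under these, except COL6A2 at 1.02 with the GC trend removed. The 3 higher collagen genes became 1 under a minimum of 10 CPM (COL8A1), 1 at 2-fold and 0 at 4-fold. The 1 lower gene became 0 under 10 CPM, 4-fold, an interval wholly beyond 1.5-fold and the GC trend removed. Over all genes the 583 higher and 648 lower became 242 and 196 under 10 CPM, 149 and 230 at 2-fold, 12 and 20 at 4-fold, and 158 and 145 with the interval wholly beyond 1.5-fold. The median of 0.19 was 0.12 with the length trend removed, 0.257 with the GC trend removed, 0.271 under 10 CPM and 0.033 with no low-count filter. That last value is the one that equal counts, or counts both set to the floor of 3, give. The collagen share of 0.424% and 0.513% was 0.432% and 0.522% of protein-coding counts, 0.488% and 0.595% with those genes omitted, and 0.194% and 0.218% without COL4A1 and COL4A2. The 12 higher and 5 lower genes of the other lists were 7 and 8 with the length trend removed. GC trends, merged exons and leaving out COL4A1 and COL4A2 were chosen after seeing the data. Beyond that floor, the cause of these moves was not tested. COL14A1, COL12A1, COL11A2, COL5A2, COL4A5 and COL9A2 rest on under 200 counts in each library, and variation between cultures is unknown.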

Other observations

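The 23 genes outside the collagen family with a run of 20 or more glycine triplets, chosen by sequence and with no regard to their values, include collectins, scavenger receptors and C1q-like proteins. Of these 12 had no counts in either library and 7 were measured, 2 of them higher and 3 lower by the 1.5-fold rule, against 4.41% and 4.90% of all measured genes. SCARA3, a scavenger receptor-like gene with a run of 49 triplets, had 1060 and 617 counts, a ratio of 0.596 (0.538 to 0.658). COLEC10, a collectin known from liver, had 266 and 143 counts, a ratio of 0.550 (0.446 to 0.677). EMID1 had 65 and 41 counts, a ratio of 0.645 (0.426 to 0.969). COLEC12, a collectin of the cell surface, had 31 and 56 counts, a ratio of 1.85 (1.17 to 2.97). KRT3, a keratin whose glycine-rich ends meet the sequence rule without a collagen helix, had 120 and 275 counts, a ratio of 2.34 (1.89 to 2.93). MSR1 and the polyadenylation factor WDR33 had ratios of 0.938 (0.501 to 1.75) and 1.102 (1.02 to 1.19). The genes with such a run therefore lay on both sides of 1, as the collagen genes did.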
